A study of Solanum lycopersicum with 3 samples.

Results

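PIN proteins are membrane carriers that move the plant hormone auxin out of the cytoplasm. The long forms sit at the plasma membrane, often on a single side of the cell, and so set the direction in which auxin flows through a tissue. The short forms of Arabidopsis, PIN5 and PIN8, lie in the endoplasmic reticulum and act on auxin within the cell. In a young leaf, auxin maxima made by this transport mark where leaflets, lobes and veins arise. The tomato family was described here through 9 loci, SlPIN2 to SlPIN10, and 6 of these 9 were among the 21717 loci analysed. The loci of SlPIN2, SlPIN8 and SlPIN10 had no row to read and were not analysed here. Of the 21717 listed loci, only 31 were at 0 in every library. Whether low signal left a locus without a row was not tested. Percentiles and shares of all loci refer to these listed loci.

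Carrier RNA was read in 3 libraries of young leaf primordia from tomato (Solanum lycopersicum). Every library was of the genotype slmp, grown from slmp-1 plants, which carry a mutation in the tomato counterpart of MONOPTEROS, an auxin response factor that switches on genes when auxin is present. Each library held the RNA of 15 pooled primordia, taken from leaf 5 when it had reached stage P5, the fifth youngest position at the apex. The plants were genotyped, lit for 18 h a day with 6 h of dark, and given a water spray (the mock treatment) 1 h before harvest. All libraries share genotype, stage and spray. No wild-type or auxin-treated group was analysed here, so the values describe carrier levels within the mutant and say nothing of what the mutation changed. In pooled tissue, fewer cells that express a carrier and less RNA per cell cannot be told apart.

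Carrier numbers were taken from the list that defined the family, in which each number is paired with a locus. RefSeq annotates genes named PIN2 to PIN10 in the tomato assembly SLM_r2.1, and the chromosome of all 9 matched the chromosome in the locus identifier. RefSeq holds none of the identifiers themselves, so the match rests on name and chromosome. A tomato number does not mean that the gene is the counterpart of the Arabidopsis gene with that number.

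Levels are given as scaled values, the deposited read numbers after division by 1 factor per library. Depth was 2746410 steps over all loci in replicate 1, 2574146 in replicate 2 and 2499843 in replicate 3, a step being the value of about 1 read. The 6 carriers together took 456, 415 and 460 of these steps. The sequenced fragments came from the 3′ ends of transcripts, about 1 per molecule whatever the length. Levels of different genes were therefore set side by side without division by length. This presumes that the annotation covers the 3′ end of each gene and that its reads map to it alone, which was not tested. As a check of the tissue, 4 loci recorded as leaf-development regulators (a KNOX, a boundary NAC, a TCP and an adaxial MYB gene, pairings not checked against a source of names) were all listed. Of these 4, 3 reached 10 scaled units in every library, against 68.7% of all loci, so this count does not identify the tissue. The highest mean was 448 ± 85.0 (SD, n = 3), and the KNOX locus was lowest at 6.47 ± 2.24.

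The carriers fell into a higher and a lower tier. SlPIN4, SlPIN9 and SlPIN7 had means between 99.3 and 196, and SlPIN5, SlPIN6 and SlPIN3 had means between 17.0 and 23.2. The lowest value of any library in the higher tier was 73.3, and the highest value in the lower tier was 30.1. All 9 pairs made of a carrier of each tier thus had library ranges that did not overlap, and the smallest ratio within a library was 3.09. The tiers were named after the values were seen. All 6 carriers were above 0 in every library, as were 91.1% of all loci, so none of the 6 read as absent. Only 31 of the 21717 listed loci were at 0 in every library, so for a listed carrier this outcome was close to fixed in advance. A minimum of 10 scaled units in every library was met by 4 of the 6 (66.7%), against 68.7% of all loci, and that share lies near the background.

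**Figure D1:**
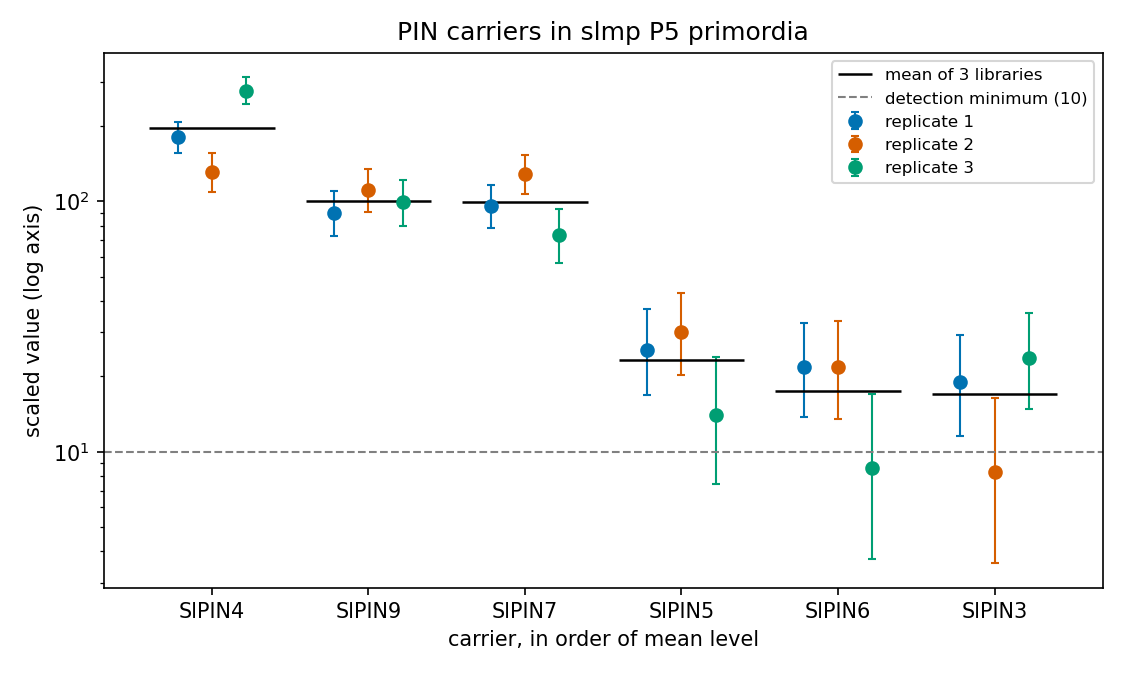
Scaled value of each carrier (log axis) in the 3 slmp libraries; points are libraries, bars their 95% Poisson counting intervals, black lines the means and the dashed line the minimum of 10. SlPIN4 is highest in each library, SlPIN5, SlPIN6 and SlPIN3 lie below the other carriers in every library, and SlPIN6 in replicate 3 and SlPIN3 in replicate 2 fall under the minimum.

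SlPIN4 (Solyc05g008060, chromosome 5) was the most abundant of the 6 carriers. In tomato, silencing of this gene is known to give precocious fruit development, and in sequence it belongs to the group of Arabidopsis PIN3, PIN4 and PIN7. Its scaled values were 180.1, 131 and 277 in replicates 1, 2 and 3, a mean of 196 ± 74.3 (SD, n = 3). This placed it at percentile 88.6 of the means of all loci. It ranked first of the 6 in each library, but by unequal margins. In replicate 3 it stood at 2.79 times SlPIN9, the next of the 6 there. In replicate 2 it stood at 1.02 times SlPIN7, which is 126 steps against 124 and less than counting error can resolve.

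SlPIN4 also varied between libraries by more than counting. The 95% Poisson interval ran from 109 to 156 in its lowest library, replicate 2, and from 244 to 313 in its highest, replicate 3. These intervals did not overlap. Intervals of this kind cover counting error only, and PCR copies were not told apart from separate molecules. The summed level of the 4 leaf-development loci also differed between libraries, at 772, 1163 and 791 in replicates 1, 2 and 3. This sum was highest in replicate 2, where 2 carriers, SlPIN4 and SlPIN3, were lowest and the other 4 were highest. The part of tissue make-up in the carrier values was not tested.

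SlPIN9 and SlPIN7, both on chromosome 10, followed at levels close to each other. SlPIN9 (Solyc10g078370) had scaled values of 90.0, 111 and 99.1 in replicates 1, 2 and 3, a mean of 100.1 ± 10.6 (SD, n = 3). Its libraries were close to each other, and the counting intervals of the lowest and the highest overlapped. SlPIN7 (Solyc10g080880) had values of 95.7, 129 and 73.3, a mean of 99.3 ± 27.9 (SD, n = 3). It was highest in replicate 2 and lowest in replicate 3, with intervals of 107 to 154 and 56.9 to 92.9 that did not overlap. SlPIN7 and SlPIN4 were the only carriers of the 6 whose lowest and highest libraries separated in this way. The share of all loci that do so was not computed. Counting intervals are relatively wider at few steps, so the call also depends on level. The means of SlPIN9 and SlPIN7 lay at percentiles 77.8 and 77.6 of all loci.

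The order of SlPIN9 and SlPIN7 was not resolved. SlPIN9 exceeded SlPIN7 in 1 of 3 libraries, by 0.04 ± 0.34 on the log2 scale (SD, n = 3), and their ranges overlapped. SlPIN4 stood above SlPIN9 in 3 of 3 libraries, by 0.90 ± 0.62, and their ranges did not overlap. In replicate 2, however, the ratio of SlPIN4 to SlPIN9 was only 1.18. Their counting intervals there, 109 to 156 and 91.1 to 134, overlapped.

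The lower tier held SlPIN5, SlPIN6 and SlPIN3. SlPIN5 (Solyc01g068410, chromosome 1) had scaled values of 25.6, 30.1 and 14.0 in replicates 1, 2 and 3, a mean of 23.2 ± 8.31 (SD, n = 3). It was the only carrier of this tier above the minimum in all 3 libraries. SlPIN6 (Solyc06g059730, chromosome 6) had values of 21.8, 21.8 and 8.62, a mean of 17.4 ± 7.61. Arabidopsis PIN6 is found both at the plasma membrane and in the endoplasmic reticulum. SlPIN6 was alike in replicates 1 and 2 and lower in replicate 3, where it rests on 8 steps.

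SlPIN3 (Solyc04g007690, chromosome 4) is the close relative of SlPIN4 in sequence, yet it had the lowest mean of the 6. Its values were 19.0, 8.31 and 23.7 in replicates 1, 2 and 3, a mean of 17.0 ± 7.88 (SD, n = 3). SlPIN6 was lowest instead when a library was left out, at 15.2 against 16.0 for SlPIN3 without replicate 1 and at 15.2 against 21.3 without replicate 2. SlPIN3 was low in replicate 2, where it also rests on 8 steps, with a counting interval of 3.59 to 16.4. The means of SlPIN5, SlPIN6 and SlPIN3 lay at percentiles 41.1, 34.6 and 34.1 of all loci, below the median locus at 33.3 scaled units. The lowest and highest libraries of each of these 3 carriers had overlapping counting intervals.

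Within the lower tier no order was resolved over the 3 libraries either. SlPIN5 exceeded SlPIN6 in 3 of 3 libraries, by 0.44 ± 0.21 on the log2 scale (SD, n = 3), but their ranges overlapped. SlPIN6 exceeded SlPIN3 in 2 of 3, by 0.04 ± 1.33. At the boundary of the tiers SlPIN7 exceeded SlPIN5 in 3 of 3, by 2.08 ± 0.22, a ratio of means of 4.27. Of the 5 pairs of neighbours in the order of means, 2 had ranges that did not overlap, SlPIN4 with SlPIN9 and SlPIN7 with SlPIN5. Without replicate 3 SlPIN7 came second in the order, and the number was 4 of 5. The separate pairs were then SlPIN4 with SlPIN7, SlPIN9 with SlPIN5, SlPIN5 with SlPIN6 and SlPIN6 with SlPIN3. In an exact two-sided sign-flip permutation test of the differences within libraries, 3 libraries allow no p below 0.25. That smallest value was reached by SlPIN4 with SlPIN9, SlPIN7 with SlPIN5 and SlPIN5 with SlPIN6. Each had an adjusted p of 0.417 in this sign-flip test over the 5 pairs, so none of these orders could pass a threshold of 0.05. Over all 15 pairs of carriers, 11 had ranges that did not overlap. These include the 9 pairs across the tiers, which were drawn from these same values. They also include SlPIN4 with SlPIN7, separate only at 131 against 129, less than counting error can resolve.

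**Figure D2:**
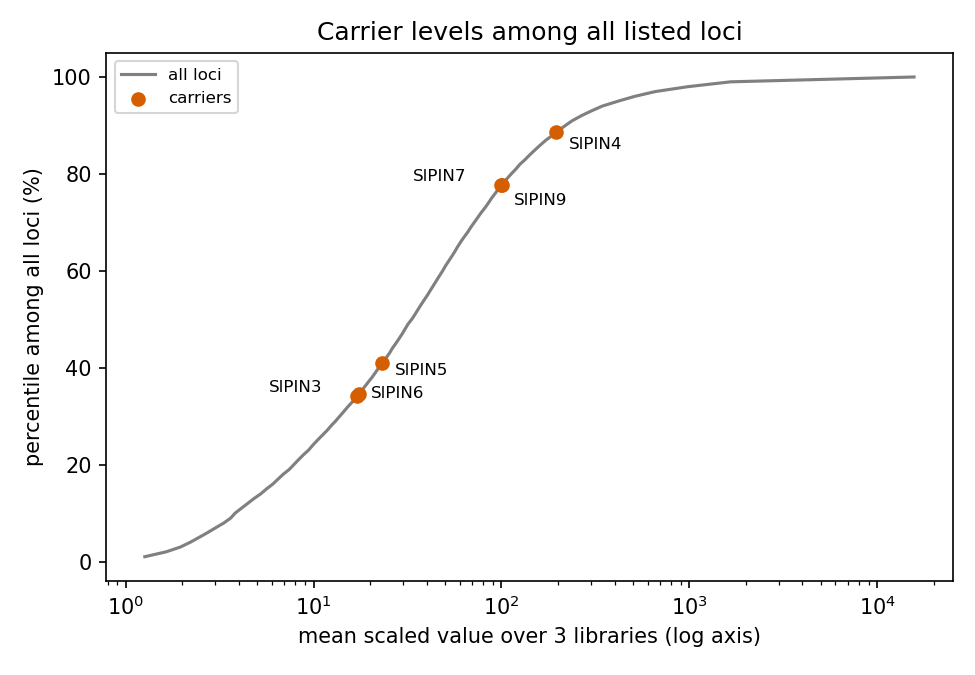
Percentile of each carrier's mean scaled value (log axis) among all 21717 loci, with the grey curve for all loci and points for the 6 carriers. SlPIN4 sits at percentile 88.6, SlPIN9 and SlPIN7 sit together at 77.8 and 77.6, and SlPIN5, SlPIN6 and SlPIN3 lie between 34.1 and 41.1.

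Together, the 6 carriers came to 432, 431 and 496 scaled units in replicates 1, 2 and 3, a mean of 453 ± 37.0 (SD, n = 3). Their median was 61.2, between the tiers, against 33.3 over all loci, and 3 of the 6 lay above the latter. SlPIN4 took 41.7%, 30.4% and 55.9% of the sum in replicates 1, 2 and 3, a mean of 42.6% ± 12.8. SlPIN7 took 22.3% ± 7.55 and SlPIN9 took 22.2% ± 3.13. The carriers of the higher tier together took 84.6%, 86.0% and 90.7% in the 3 libraries. SlPIN5, SlPIN6 and SlPIN3 shared the remaining 12.9% ± 3.15 (SD, n = 3). Among these carriers SlPIN4 thus held the largest share in each library. These are shares of the 6 carriers reported, not of the whole family.

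**Figure D3:**
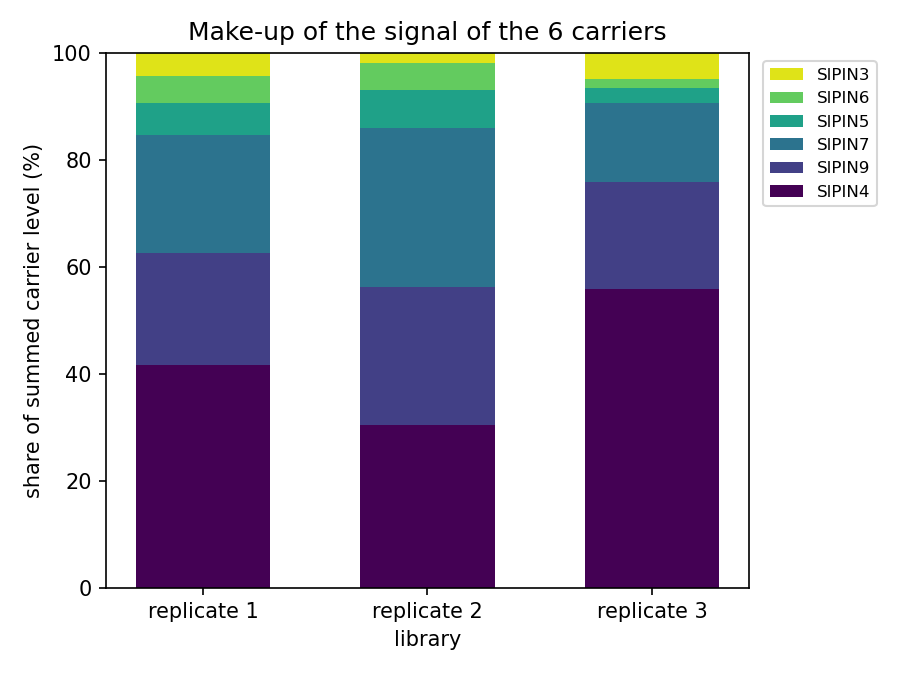
Share of the summed scaled value of the 6 reported carriers (percent, bars from 0 to 100) that each took in each library. SlPIN4 takes 30.4% in replicate 2 and 55.9% in replicate 3, while the 3 carriers of the higher tier together take between 84.6% and 90.7%.

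The libraries did not move the carriers in common. Relative to its own mean on the log2(value + 1) scale, SlPIN4 deviated by -0.05, -0.51 and 0.56 in replicates 1, 2 and 3. SlPIN3 deviated by 0.26, -0.84 and 0.57, so both were lowest in replicate 2 and highest in replicate 3. The opposite arrangement held for SlPIN7, at -0.01, 0.41 and -0.40. SlPIN5, at 0.20, 0.43 and -0.63, and SlPIN6, at 0.41, 0.42 and -0.83, were likewise lowest in replicate 3. SlPIN9 deviated by -0.15, 0.15 and -0.01. For SlPIN9, SlPIN5, SlPIN6 and SlPIN3 the counting intervals of the lowest and highest library overlapped. Overlap of such intervals is not a test of equal levels, so whether their arrangement exceeds counting error was not tested. The ratio of SlPIN4 to SlPIN7 was accordingly 1.88, 1.02 and 3.78 in replicates 1, 2 and 3. These are 3 replicates of a single condition, so the arrangement is given as values, with no test.

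**Figure D4:**
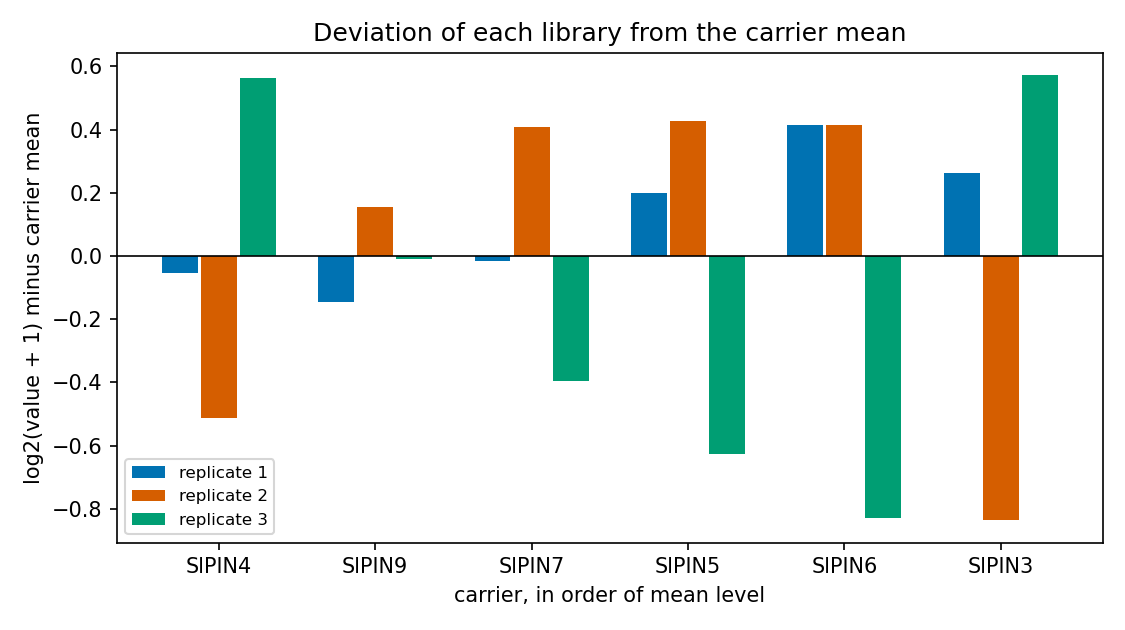
Deviation of each library from the carrier's own mean, in log2(value + 1), for the 6 carriers in order of mean level. SlPIN4 and SlPIN3 are lowest in replicate 2 and highest in replicate 3, and SlPIN7, SlPIN5 and SlPIN6 are lowest in replicate 3.

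The SD over libraries on the log2 scale was 0.54 for SlPIN4, 0.40 for SlPIN7, 0.15 for SlPIN9, 0.55 for SlPIN5, 0.72 for SlPIN6 and 0.74 for SlPIN3. Across the 14910 loci that met the minimum of 10 the median SD was 0.27, with quartiles at 0.17 and 0.41. Among those loci SlPIN5 lay at percentile 88.6, SlPIN4 at 87.7, SlPIN7 at 73.8 and SlPIN9 at 20.4. The median SD over the 4 carriers that met the minimum was 0.47. Without replicate 2 it was 0.27, and without replicate 3 it was 0.21, so this median rests on those libraries. SlPIN6 and SlPIN3 did not meet the minimum and rest on few steps.

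AUX/LAX proteins carry auxin into the cell, the step before its export by PIN proteins. The 5 loci recorded under that family from general knowledge, whose single names were not checked against a source, were all listed. The minimum of 10 was met by 4 of the 5, against 68.7% of all loci. Their means were 191 ± 18.5, 99.7 ± 25.8, 24.4 ± 7.77, 12.9 ± 0.590 and 7.51 ± 7.14 (SD, n = 3). A single influx locus took 57.1% ± 7.60 of their sum, beside 42.6% for SlPIN4 among the 6 efflux carriers. Summed over the influx loci, the level was 365 in replicate 1, 321 in replicate 2 and 320.0 in replicate 3. The 6 efflux carriers stood above them in each library, at ratios of 1.18, 1.34 and 1.55, a mean of 1.36 ± 0.183. This ratio covers the reported loci only.

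No carrier had a neighbouring locus whose values matched its own within 3% in every library. A neighbour that shares only part of its reads with a carrier would not be found in this way. In the SLM_r2.1 assembly, 1 of the 9 RefSeq genes overlapped another gene, and that was PIN8, which was not analysed here. How the counting treated strand, and reads from similar family members, is not given in the sources used here.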

How the data were processed

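Libraries were made with a 3′ QuantSeq kit from polyadenylated RNA, per the labels' protocols. Bowtie2, HTSeq and DESeq2 were used, per the submitters' processing notes; their versions, the build and the annotation were not stated in the sources used here. The authors deposited 1 signal value per locus and library. Each value was a whole multiple of a step of 0.948, 1.04 or 1.08 in replicates 1, 2 and 3, within 0.001 of a step, the form of read counts divided by a factor per library. No value of 1 step occurred, and the reason is not known, so steps may not be plain read counts. The Poisson intervals treat them as such, and no other count model was used. The level of 3 steps was 2.84, 3.12 and 3.23. The rows of reads without a locus were left out.

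Means, SDs, percentiles among 21717 loci and exact 95% Poisson intervals of steps were computed, with a pseudocount of 1 on the log2 scale, with Python 3.11.15 (SciPy 1.17.1, pandas 2.3.3, numpy 2.4.6); the calculations were tested on simulated data. Nothing says that the 3 libraries are separate growths, so spreads may be technical. Every listed member is named, except that a carrier of the family is not reported here and enters no sum or share. Members and lists were chosen with earlier results of these data known. Alternatives covered scaling, the minimum, the pseudocount and leaving out each replicate.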

Additional observations from a re-analysis of the deposited data

Results flagged for a closer look

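Reads that the counting gave to no single locus are signal outside the carrier values. In the library where each was lowest, reads without a locus were 21.2% of everything the table sums, ambiguous reads 2.43% and reads of low alignment quality 21.4%. There was no control library, and whether any of these reads came from carrier transcripts was not tested. A group of 3 libraries is too small to test single outlying samples.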

How the results depend on the processing

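Each result was recomputed under its alternatives, 68 values in all, and 64 stayed within 1.5 times of a count or median spread, or within the spread between replicates of a value. Part of this tally could not move. Leaving out 1 of 3 libraries cannot shift a mean level, sum or share by a full SD. Shares are also unchanged by a factor per library. The carriers meeting the minimum numbered 6 at a minimum of 5, 3 at a minimum of 20, and 4 to 5 when a replicate was left out. The median carrier level was 99.7 over the carriers meeting the minimum alone, which leaves out low members by construction. The share of SlPIN4 ranged from 36.0% to 48.8% and the median spread from 0.21 to 0.66 without each replicate. Neighbours with ranges that did not overlap numbered 2 to 4 on leaving out a replicate, with 4 of 5 without replicate 3, where fewer samples narrow the ranges. SlPIN4 came first under every scaling and with each replicate left out, and the tiers kept their members. Both outcomes were fixed in advance, because they held within each library. SlPIN7 came second without replicate 3. SlPIN3 stood above SlPIN5 without replicate 2 and above SlPIN6 without replicate 1 or 2. Depth limits SlPIN3 and SlPIN6, which rest on 8 steps in their lowest library. No paired analysis was possible because there was only 1 group of libraries, so groups could not be paired; the carriers themselves were compared within libraries.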
